A study of Mus musculus with 8 samples.

Results

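A set of 10 identity genes of deep-layer projection neurons, the excitatory neurons of cortical layers 5 and 6, was followed in RNA sequencing counts from embryonic mouse cortex. The genes were Bcl11b, Fezf2, Tbr1, Sox5, Foxp2, Tle4, Zfpm2, Ldb2, Pcp4 and Nr4a2, picked by symbol among the 21165 gene rows of the count table. Of these 10 rows, 9 passed the filter on low counts and were tested, and the row of Pcp4 held no count in any library. Cortices were microdissected at E18.5 from 8 embryos of the C57Bl/6JRj background, 4 of them Nuak1 KO and 4 WT. The KO was constitutive, so every cell of the embryo carried it, and KO animals die at birth. NUAK1 is a kinase of the AMPK-related family. The labels list 3 litters, 2 males among the KO and 1 male among the WT embryos. Columns of the table carry a genotype and a running number (R1 to R4) only. The labels therefore assign neither litter nor sex to a library, and sex was not read from the counts. Whether deep-layer identity genes differ in level between genotypes was the question asked of these 10 rows.

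Projection neurons of layers 5 and 6 are among the early-born excitatory neurons of the cortex and send axons below the cortex, to the thalamus, brainstem and spinal cord. Their identity is set by transcription factors that restrain each other: FEZF2 and its downstream factor BCL11B (CTIP2) mark subcerebral neurons of layer 5, and TBR1 marks corticothalamic neurons of layer 6 and represses Fezf2. Since whole cortices were sequenced, fewer cells of a type and less RNA per cell cannot be told apart in what follows.

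Total counts ran from 11027082 to 27014858 in KO and from 9643711 to 18940484 in WT. Values are given as normalized counts, which are counts scaled by TMM to the mean library size. For Nuak1 the KO libraries held 11.1 to 20.5 normalized counts and the WT libraries 877 to 1445, so every column followed its label. Some libraries stood apart. Meningeal fibroblast markers were high in KO R1 alone, with Col1a1 at 1199 normalized counts against 28.9 to 43.8 in the other KO libraries and 19.5 to 28.9 in WT. WT R4 was the lowest WT library for 5 of the 9 members tested. Among KO libraries, KO R1 was the lowest for 6 of the 9 and KO R2 the highest for 6 of the 9. Their part in the results was not tested beyond leaving each out, and those values are given with the members.

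At the thresholds of the study, an absolute log2 fold change over 0.25 with an unadjusted p under 0.05, 5 of the 9 members differed between genotypes by edgeR's quasi-likelihood test. Bcl11b, Fezf2, Tle4 and Zfpm2 were lower in KO and Foxp2 was higher. Over all 12699 genes tested, 4.25% passed these thresholds, 1.80% lower and 2.45% higher in KO, and 7.69% had an unadjusted p under 0.05, as had the same 5 members. None of the 9 members passed an adjusted p of 0.05 with edgeR or with DESeq2, a cut-off that 0.0709% of genes passed with edgeR and 0.638% of the 10965 genes that DESeq2 adjusted. The count of 5 fell to 2 (Bcl11b and Fezf2) without WT R1 and to 3 without KO R3, and all genes past the thresholds rose from 540 to 847 without WT R4. DESeq2 placed the same 5 members, and 3.85% of all genes, past the study's thresholds. Its smallest adjusted p-values among the members were 0.077 for Bcl11b and 0.099 for Fezf2. The median log2 fold change was -0.27 over the 9 members and -0.01 over all genes tested, and 6 of the 9 members and 54.4% of all genes were lower in KO. Libraries of the genotypes did not overlap for 1 member, Bcl11b, and for 4.49% of all genes.

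**Figure D1:**
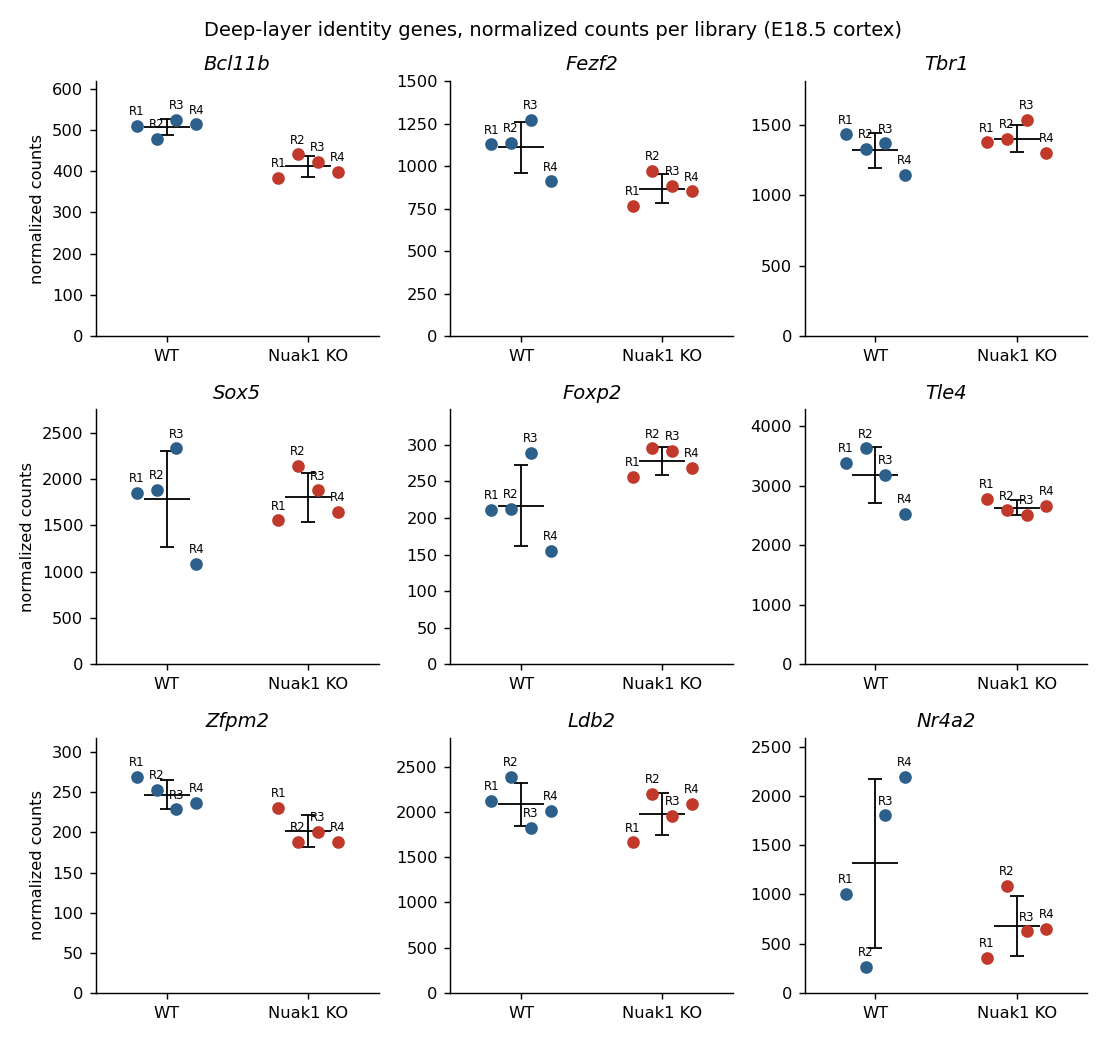
Normalized counts (vertical axes, from 0) of the 9 members with counts, for the 4 WT (blue) and 4 Nuak1 KO (red) libraries, each point labelled R1 to R4. Black marks show the mean and SD of 4 libraries. All 4 KO points lie below all 4 WT points for Bcl11b, from 384 to 441 against 478 to 525, while Nr4a2 spreads from 266 to 2194 within WT.

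The subcerebral pair, Fezf2 and Bcl11b, was lower in KO, with a mean change of -18.8% for Bcl11b and of -21.9% for Fezf2. The sequences before the start sites of both are shown because no other member stayed past the study's thresholds with every library left out in turn. They are the 250 bases before the RefSeq start on GRCm38.p6, both on the minus strand and written 5′ to 3′ in the direction of the gene, with CG dinucleotides in capitals. The Bcl11b stretch lies at chr12:108003415-108003664 and the Fezf2 stretch at chr14:12345866-12346115.
Bcl11b: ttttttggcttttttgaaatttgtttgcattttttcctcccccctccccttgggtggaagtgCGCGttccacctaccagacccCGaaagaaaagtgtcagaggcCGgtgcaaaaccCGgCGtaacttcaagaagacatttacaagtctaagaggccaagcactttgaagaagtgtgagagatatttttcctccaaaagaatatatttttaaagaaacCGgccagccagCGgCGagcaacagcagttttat
Fezf2: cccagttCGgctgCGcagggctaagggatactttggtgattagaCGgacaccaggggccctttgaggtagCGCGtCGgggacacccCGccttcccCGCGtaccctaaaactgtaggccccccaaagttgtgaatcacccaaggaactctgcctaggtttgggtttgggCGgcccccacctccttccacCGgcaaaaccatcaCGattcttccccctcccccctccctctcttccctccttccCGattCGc
The Bcl11b stretch holds 9 CG dinucleotides at 44.8% G and C, and the Fezf2 stretch 14 at 61.2%, where the median over 32851 RefSeq promoters of this length was 6. Neither stretch holds GGTGTGA (a T-box motif), ACAATGG (a SOX motif) or TATAAA on either strand. RefSeq promoters were matched for 7 of the 10 members, 8 promoters in all since Tle4 has 2. Foxp2, Zfpm2 and Ldb2 were not matched. GGTGTGA was in 0 of the 8 and in 3.33% of all promoters, ACAATGG in 1 of the 8 (Sox5) and in 3.02% of all, and TATAAA in 1 of the 8 (Nr4a2) and in 12.4% of all. The Nr4a2 stretch was the richest of the 8 in CG, with 44, more than 99.5% of all promoters.

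Bcl11b encodes the zinc finger factor CTIP2, which directs corticospinal axon growth, and its gene spans 109148613 to 109241812 on chromosome 12, minus strand (NCBIM37, which is mm9, as for all gene positions here). It had 384, 441, 422 and 399 normalized counts in KO R1 to R4 and 511, 478, 525 and 513 in WT R1 to R4. Every KO library was lower than every WT library, and the spread within a genotype was small, with a coefficient of variation of 6.08% in KO and 3.91% in WT. Raw counts of 290 to 682 per library give a counting error of 3.83% to 5.87%, so the spread between libraries was near that of counting alone. This gave a log2 fold change of -0.30 (standard error 0.07, 95% interval -0.46 to -0.14, unadjusted p = 0.0016 and adjusted p = 0.35 by edgeR's test). The exact permutation test gave p = 0.0286 (two-sided), the smallest that 4 against 4 libraries allow. Over the 8 fits that each lack 1 library, the estimate lay between -0.33 and -0.26 and passed the study's thresholds every time. By unadjusted p, Bcl11b ranked 58 among all genes tested.

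Fezf2, a zinc finger repressor and the selector gene of subcerebral neurons, spans 13174406 to 13178379 on chromosome 14, minus strand. Its normalized counts were 767, 972, 881 and 851 in KO and 1128, 1136, 1272 and 910 in WT. The KO libraries lay below 3 of the 4 WT libraries, and the genotypes overlapped only because WT R4 fell among the KO values. This corresponds to a log2 fold change of -0.36 (standard error 0.10, 95% interval -0.58 to -0.14, unadjusted p = 0.0042 and adjusted p = 0.44 by edgeR's test), and the exact permutation test gave a two-sided p = 0.057. It passed the study's thresholds in all 8 fits with a library left out, between -0.44 without WT R4 and -0.29 without WT R3.

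TLE4 is a Groucho-type corepressor and ZFPM2 (FOG2) a zinc finger cofactor, and both are markers of corticothalamic neurons of layer 6. Tle4 (chromosome 19, minus strand, 14522562 to 14672473) had 2785, 2588, 2505 and 2665 normalized counts in KO and 3381, 3629, 3179 and 2529 in WT. WT R1 to R3 lay above all KO libraries, whereas WT R4 lay among them. For Tle4 the log2 fold change was -0.27 (standard error 0.09, 95% interval -0.48 to -0.07, unadjusted p = 0.014 and adjusted p = 0.55 by edgeR's test), and the exact permutation p was 0.11 (two-sided). Without WT R4 it was -0.36 with an unadjusted p = 7.7e-05 and an adjusted p = 0.062 by edgeR's test, and it was no longer past the fold change threshold without KO R3 (-0.25), WT R1 (-0.24) or WT R2 (-0.20).

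Zfpm2 (chromosome 15, plus strand, 40486588 to 40936138) had 231, 189, 201 and 188 normalized counts in KO and 269, 253, 229 and 236 in WT. KO R1 was level with the lowest WT libraries and the other 3 KO libraries lay below all of WT. Zfpm2 thus had a log2 fold change of -0.29 (standard error 0.10, 95% interval -0.52 to -0.07, unadjusted p = 0.014 and adjusted p = 0.55 by edgeR's test), with an exact permutation p of 0.057 (two-sided). It passed the thresholds in 7 of 8 fits and missed them without WT R1, at -0.25 with an unadjusted p = 0.052. With 124 to 325 counts per library, its counting error of 5.55% to 8.98% was of the same order as the spread within KO (9.86%) and within WT (7.33%).

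**Figure D2:**
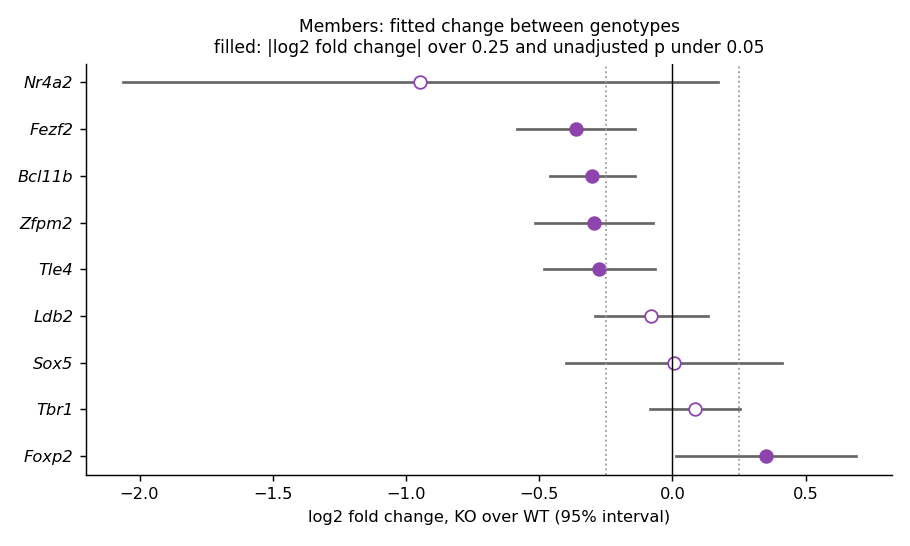
Log2 fold change of KO over WT (horizontal axis) with its 95% interval from edgeR for the 9 members tested, ordered by size, and dotted lines at 0.25 and -0.25. Filled points, Foxp2 at 0.35 and Tle4, Zfpm2, Bcl11b and Fezf2 from -0.27 to -0.36, passed both thresholds of the study, and the interval of Nr4a2, from -2.06 to 0.17, is the widest.

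Foxp2, a forkhead factor of layer 6 corticothalamic neurons, was the only member higher in KO past the thresholds. The gene lies on chromosome 6, plus strand, from 14851349 to 15391977, and had 256, 295, 291 and 268 normalized counts in KO and 211, 212, 289 and 155 in WT. All KO libraries lay above WT R1, R2 and R4, and WT R3 lay among the KO libraries. The estimate for Foxp2 was a log2 fold change of 0.35 (standard error 0.15, 95% interval 0.01 to 0.69, unadjusted p = 0.043 and adjusted p = 0.64 by edgeR's test), with an exact permutation p of 0.086 (two-sided). It passed the thresholds in only 2 of 8 fits with a library left out, those without KO R1 (0.39) and without WT R3 (0.52), and was 0.24 without WT R4. The spread was uneven, with a coefficient of variation of 6.73% in KO and 25.4% in WT.

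Tbr1 and Sox5, both regulators of layer 6 and subplate identity, did not pass the thresholds. Tbr1 (chromosome 2, plus strand, 61640987 to 61652171), the T-box factor of corticothalamic fate, had 1377, 1402, 1537 and 1302 normalized counts in KO and 1434, 1332, 1370 and 1149 in WT. Its log2 fold change was 0.09 (standard error 0.08, 95% interval -0.08 to 0.25, unadjusted p = 0.28 by edgeR's test), so that a change of the size seen for Bcl11b or Fezf2 in the same direction lay outside the interval. Its spread was small, at 6.99% in KO and 9.28% in WT.

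Sox5 (chromosome 6, minus strand, 143776945 to 144730497), which encodes a SOX factor that times the production of deep-layer neurons, had 1553, 2138, 1878 and 1645 normalized counts in KO and 1849, 1885, 2331 and 1083 in WT. WT held both the highest and the lowest library. The log2 fold change was 0.01 (standard error 0.18, 95% interval -0.40 to 0.41, unadjusted p = 0.97 by edgeR's test), and its sign followed the library left out, from -0.16 without WT R4 to 0.16 without WT R3. In the GENCODE annotation, 9.25% of Sox5 exon bases lie opposite exons of the antisense gene 4933415D12Rik. The strand setting of the counting is not given in the sources used here, so reads of the antisense gene may be among them.

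Ldb2, which encodes a LIM domain binding cofactor enriched in subcerebral neurons, spans 44863372 to 45190946 on chromosome 5, minus strand. It had 1663, 2197, 1960 and 2085 normalized counts in KO and 2117, 2387, 1825 and 2010 in WT, and the genotypes overlapped throughout. The log2 fold change was -0.08 (standard error 0.10, 95% interval -0.29 to 0.13, unadjusted p = 0.43 by edgeR's test). Without KO R1, which held the lowest value, it was 0.000859.

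Nr4a2, an orphan nuclear receptor of subplate, layer 6b and claustrum neurons and also an activity-responsive gene, was by far the most variable member. The gene (chromosome 2, minus strand, 56959241 to 56976414) had 356, 1084, 624 and 650 normalized counts in KO and 1002, 266, 1802 and 2194 in WT. The highest WT library had 8.26 times the count of the lowest. The biological coefficient of variation that edgeR fitted was 48.7%, higher than for 99.4% of all genes tested. The log2 fold change of -0.95 (standard error 0.51, 95% interval -2.06 to 0.17, unadjusted p = 0.089 by edgeR's test) did not pass the thresholds. It ranged from -1.30 without WT R2 to -0.58 without WT R4, and these 2 libraries hold the lowest and the highest WT value. It passed the thresholds without WT R2 (unadjusted p = 0.0029 by edgeR) and without KO R2 (-1.22).

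Genes shared with either role of Nr4a2 were read beside it, chosen after its values were seen. Nr2f2, on the list of claustrum markers, had 139, 95.5, 223 and 248 normalized counts in WT R1 to R4, with its lowest value in WT R2 and its highest in WT R4, as for Nr4a2. Lxn, with 378, 284, 383 and 554, had the same extremes, but Gng2 (5111, 5049, 4968 and 4954) and Gnb4 (771, 647, 584 and 714) did not. Over the 4 claustrum markers tested the summed level was 6006 to 6564 in KO and 6075 to 6471 in WT, 1 was past the thresholds (Gnb4, higher in KO, log2 fold change 0.31, and 0.25, below the threshold, without WT R3), and the defining markers Synpo2 and Oprk1 had at most 19 and 2 counts. Among activity-responsive genes, Fos had 1 to 14 counts per library, Nr4a1 53 to 147 and Egr1 10 to 36. Within WT, Egr1 was also lowest in R2 (12.3 normalized counts) and highest in R4 (38.8), from raw counts of 22, 14, 14 and 23 in R1 to R4. Nr4a1 (110, 86.8, 74.0 and 94.6 normalized counts) and Nr4a3 were instead highest in WT R1 and lowest in WT R3. Nr4a3 had 998, 646, 798 and 830 in KO and 1288, 1239, 823 and 1216 in WT, and was lower in KO past the thresholds (log2 fold change -0.48, unadjusted p = 0.0081 and adjusted p = 0.52 by edgeR's test). The part of dissection limits or of activity in the spread of Nr4a2 was not tested.

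**Figure D3:**
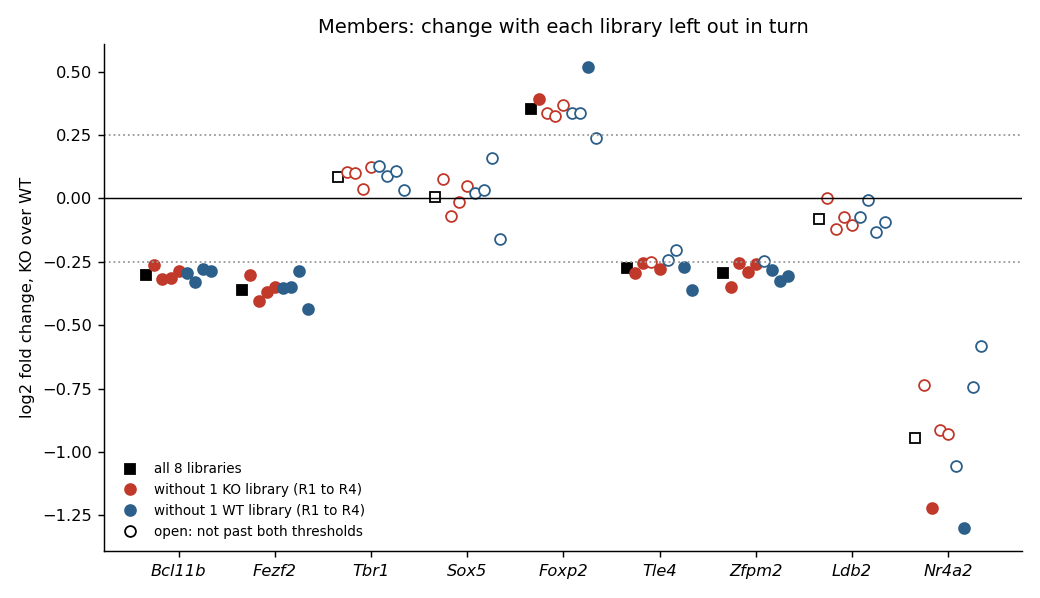
Log2 fold change of KO over WT (vertical axis) for each member with all 8 libraries (black square) and with each KO (red) or WT (blue) library left out, R1 to R4 from left to right. Filled symbols passed both thresholds of the study, which holds for all 8 such fits for Bcl11b and Fezf2, 7 for Zfpm2, 5 for Tle4 and 2 each for Foxp2 and Nr4a2.

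Pcp4 encodes a small calmodulin-binding protein that is widely used as a marker of deep-layer neurons, and its row was listed at 0 in all 8 libraries. That 0 cannot be read as absence of the transcript. Myl6, a myosin light chain of nearly all cells, and Scamp4, a secretory carrier membrane protein, were also listed at 0 in every library. In the GENCODE annotation, Pcp4 (chromosome 16, plus strand, 96689213 to 96747400) shares 243 of its 641 exon bases with Igsf5 on the same strand. Igsf5 had 1 to 11 counts. Why these rows are at 0 was not tested, and no value for Pcp4 is given.

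Levels were compared between members per length, as normalized counts per kb of exon in the GENCODE annotation. The deposited rows carry FasterDB identifiers, so the gene models behind the counts may differ from these. In WT the order was Ldb2 (793 ± 89.4, SD, n = 4), Tle4 (687 ± 102), Fezf2 (482 ± 64.9), Nr4a2 (324 ± 211), Tbr1 (241 ± 22.4), Sox5 (124 ± 36.0), Bcl11b (62.5 ± 2.44), Zfpm2 (38.7 ± 2.84) and Foxp2 (16.1 ± 4.09). Neighbours from Ldb2 to Tbr1 overlapped between WT libraries and their order is not settled by 4 libraries. From Tbr1 downwards neighbours did not overlap. In KO, Nr4a2 (167 ± 74.2) came after Tbr1 (256 ± 17.9), and the order was otherwise that of WT. Exon lengths are the union of all annotated isoforms, so a gene with long alternative ends such as Foxp2 (13457 bases) may be placed too low.

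**Figure D4:**
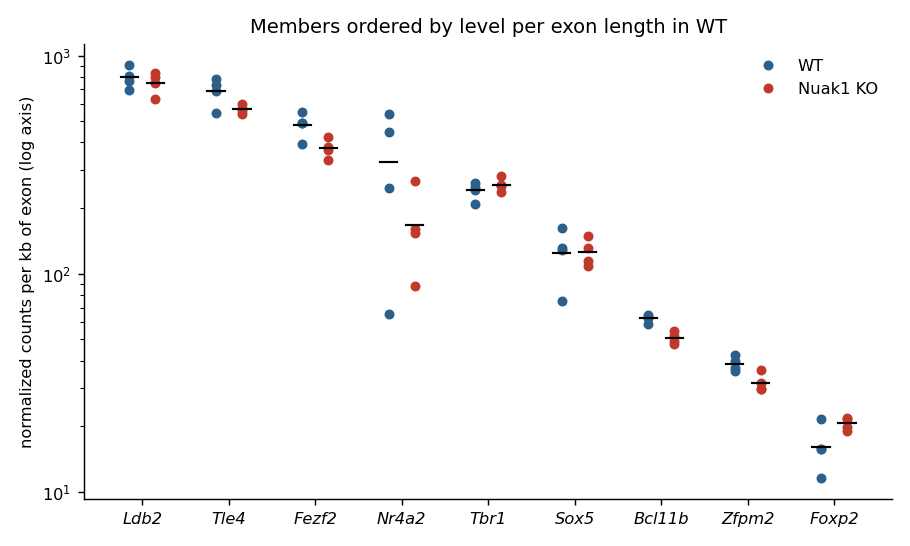
Normalized counts per kb of exon (vertical axis, log scale) of the 9 members in 4 WT (blue) and 4 Nuak1 KO (red) libraries, ordered by the WT mean, with bars at the means. Levels run from 793 for Ldb2 to 16.1 for Foxp2 in WT.

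Ratios between members do not depend on the scaling of libraries, and 4 were computed, as a choice made after the values were seen. The log2 ratio of Tbr1 to Fezf2 was 0.84, 0.53, 0.80 and 0.61 in KO and 0.35, 0.23, 0.11 and 0.33 in WT, higher in every KO library. The log2 ratio of Foxp2 to Tle4, both genes of layer 6, was -3.44, -3.13, -3.10 and -3.32 in KO and -4.00, -4.10, -3.46 and -4.02 in WT, with KO R1 and WT R3 nearly equal. The log2 ratio of Fezf2 to Bcl11b overlapped, at 0.998 to 1.14 in KO and 0.83 to 1.28 in WT, and so did that of Sox5 to Foxp2, at 2.60 to 2.86 in KO and 2.80 to 3.15 in WT.

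Of the 8 regulators reported here that act with the members, 0 passed the thresholds or had an unadjusted p under 0.05 by edgeR, with a median log2 fold change of -0.01. Bcl11a, the paralogue of Bcl11b, ran from 2870 to 3279 normalized counts in KO and from 3017 to 3325 in WT, and its log2 fold change was -0.05 (standard error 0.06). Ski, a transcriptional corepressor, had a log2 fold change of 0.06 (standard error 0.05), Bhlhe22 one of 0.09 (standard error 0.11) and Nr2f1, an areal regulator, one of -0.12 (standard error 0.22).

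Other genes of the same layers were counted from lists. Of 10 other layer 5 genes tested, 3 were lower past the thresholds and 0 higher, with a median log2 fold change of -0.18. They were Crym (a thyroid hormone binding protein), Crim1 (a transmembrane protein of corticospinal neurons) and Npr3 (a natriuretic peptide receptor). Crim1 had 851, 827, 878 and 869 normalized counts in KO and 1150, 1143, 1042 and 1265 in WT, without overlap. Its estimate on the log2 scale was -0.42, with an adjusted p = 0.055 by edgeR's test and a standard error of 0.06. The DESeq2 Wald test gave adjusted p-values of 3.3e-05 for Crim1, 0.0080 for Crym and 0.18 for Npr3. Crym had a log2 fold change of -1.15 (standard error 0.21) and Npr3 one of -0.55 (standard error 0.16).

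Of 9 other layer 6 genes tested, 1 was lower past the thresholds (Nxph3, log2 fold change -0.28) and 1 higher (Rprm, 0.26), with a median of 0.06. Nxph3 was not past them in 5 of the 8 fits that lack a library (lowest size without WT R3, -0.18), nor Rprm in 4 (lowest without WT R4, 0.19). Subplate genes gave 0 past the thresholds among 4 tested, 0 at an unadjusted p under 0.05 with edgeR, and a median of -0.03. Cplx3 and Nxph4, defining markers of the subplate, had at most 15 and 20 counts and were not tested. Of the 14 upper-layer genes reported here, 3 were higher past the thresholds and 0 lower, with a median of 0.10: Inhba (1.02), Mef2c (0.36) and Cux1 (0.28). Cux1 missed the fold change threshold without KO R3 (0.23), WT R2 (0.24) or WT R4 (0.25).

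Markers of other cells that a dissected cortex can hold were read beside the members. All 6 meningeal markers tested were higher past the thresholds, with a median log2 fold change of 2.93 that rests on KO R1, where their summed level was 10114 normalized counts against 350 to 498 in WT. Without KO R1, Col1a1 was at 0.58, Col1a2 at 0.41, Col3a1 at 0.40 and Ptgds at -0.41, and the same 5 members remained past the thresholds. Striatal neurons also express Foxp2 and Bcl11b, and striatal markers summed to 144 to 201 in KO and 127 to 140 in WT. All 6 tested were higher in KO (median log2 fold change 0.14), and 1 of them (Rarb, 1.02) was past the thresholds. The defining marker Drd1a averaged 21.2 in KO and 14.0 in WT, from raw counts of 4 to 31 per library, and Rarb had 8 to 46. Drd2, Tac1, Six3 and Isl1 had at most 12, 15, 4 and 3 counts and were not tested. Interneuron markers summed to 5607 to 6110 in KO and 4567 to 5528 in WT, with 1 of 11 past the thresholds (Npy, 0.87, adjusted p = 0.031 by edgeR's test). Npy carries that sum, since the other 10 were all lower in KO (median log2 fold change -0.16) and summed to 3217 to 3540 in KO and 3227 to 4403 in WT. Of these 10, Gad2 had an unadjusted p = 0.016 by edgeR's test and a log2 fold change of -0.25, just short of the fold change threshold. Progenitor markers summed to 23539 to 27725 in KO and 22099 to 31658 in WT, with 1 of 9 past the thresholds (Slc1a3, -0.30). Slc1a3 was not past them without KO R3, KO R4, WT R3 or WT R4. Of the 9 progenitor markers 8 were lower in KO and 1, Sox2, was higher (median log2 fold change -0.11). Of 8 endothelial markers 1 was past the thresholds (Cldn5, 0.38). In KO 7 of these 8 were higher and 1, Slco1c1, was lower (median 0.18). None of the 4 thalamic, 5 hippocampal, 4 Cajal-Retzius or 6 microglia markers tested passed the thresholds or had an unadjusted p under 0.05 by edgeR. Gbx2 of the thalamus was at 0 or 1 count. Of the hippocampal markers 3 were higher in KO and 2 lower, Zbtb20 and Fibcd1, both at a log2 fold change of -0.47. All 6 microglia markers were higher in KO (median log2 fold change 0.12). The most abundant markers of 8 lists did not pass the thresholds, and their log2 fold changes put Reln (Cajal-Retzius cells) at 0.06, Prkcd (thalamus) at 0.05, Man1a (hippocampus) at 0.06, Adora2a (striatum) at 0.16, Fabp7 (progenitors) at -0.04, Gng2 (claustrum) at -0.02, Slco1c1 (endothelium) at -0.12 and Csf1r (microglia) at 0.15. Of the first genes of the lists, Gad1 (interneurons) was at -0.22, Sox2 (progenitors) at 0.15 and Prox1 (hippocampus) at 0.10. The part of these cells in the members' differences was not tested.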

How the data were processed

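Poly-A RNA of cortices from 4 Nuak1 KO and 4 WT embryos was sequenced as stranded paired-end libraries. Reads were trimmed by the authors (Cutadapt 1.13, Prinseq) and aligned on mm9 (TopHat2 2.0.13, with SAMtools 0.1.19). HTSeq-count then gave the number of reads on each gene, with a strand setting not given in the sources used here, and the authors deposited these whole-number counts without normalization. Versions are from the submitters' processing notes. Reads shared by overlapping or near-identical genes may be missing from these counts.

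Of 21165 rows, 12699 passed filterByExpr of edgeR 4.0.16 (R 4.3.3) and entered its quasi-likelihood test after TMM scaling, with genotype as the only term. The standard error is the log2 fold change divided by the square root of F. P-values were adjusted by Benjamini-Hochberg over all genes tested, and the test was tested on simulated data. Exact permutation tests of normalized counts were two-sided (scipy). Alternatives were DESeq2 1.42.0, its size factors, other filters on low counts, scaling to general neuronal genes, a replicate block and each library left out. Counts limit precision by counting error only, which is given with Bcl11b and Zfpm2 and was 4.61% to 10.4% for Foxp2.

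The members, gene lists and tests were chosen with earlier results of these data known. Named genes are the members, Nuak1, Ski, Bcl11a, Nr2f1 and Bhlhe22, up to 4 genes with the smallest p past the thresholds from each other list, and from each cell type list its first gene and its most abundant gene. Some genes of the lists are not reported here. Other names were chosen after their values were seen. Each library is a separate embryo per the labels, and pairs within a genotype all differed by more than sampling noise (chi-square per degree of freedom of at least 5.92). DESeq2 gave no p for Col1a1, Col1a2, Col3a1 and Ptgds, and they were left without one. The cultured neurons of the study were not analysed here.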

Additional observations from a re-analysis of the deposited data

Results flagged for a closer look

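In groups of 4 libraries, a library was picked out where its gap to the nearest other, as a share of the range, exceeded Dixon's critical value at 95%, which chance gives for about 1 in 20 groups. Of 86 groups examined 7 were picked out, where chance gives 4.3, and none of these was among the 18 groups of members. Crym was far higher in WT R4 (2574 normalized counts) than in the other WT libraries, and Man1a, on the hippocampal list, far higher in KO R3 (360) than in the other KO libraries. Ski was higher in WT R1 (1536) than in the other WT libraries. Meningeal markers were far higher in KO R1, with Col1a1 at 1199, Col1a2 at 2716, Col3a1 at 3133 and Ptgds at 1786 normalized counts.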

How the results depend on the processing

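The number of members past the study's thresholds was 5 of 9 under no filter on low counts, a minimum of 10 counts in every library, DESeq2's size factors, scaling to general neuronal genes, the DESeq2 Wald test and the replicate block, and the number past an adjusted p of 0.05 was 0 under all of these and with each library left out. Leaving out each library gave 2 to 5 members past the thresholds, 2 (Bcl11b and Fezf2) without WT R1 and 3 without KO R3, 3 to 5 at an unadjusted p under 0.05, and a median log2 fold change between -0.29 and -0.20. Over these 8 fits Foxp2 ranged from 0.24 to 0.52, Tle4 from -0.36 to -0.20, Zfpm2 from -0.35 to -0.25 and Nr4a2 from -1.30 to -0.58. Their calls changed, while Sox5 (-0.16 to 0.16) and Ldb2 (-0.13 to 0.000859) changed sign, as did Nr2f1 (-0.29 to 0.12), Prkcd (-0.042 to 0.14), Man1a (-0.051 to 0.15), Gng2 (-0.030 to 0.013), Reln (-0.015 to 0.10), Fabp7 (-0.16 to 0.064), Ptgds (-0.41 to 4.28) and Csf1r (-0.086 to 0.29). The fits hold fewer libraries, and the cause was otherwise not tested.

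Deviations of same-numbered KO and WT libraries from their genotype means had correlations of -0.03, -0.18, 0.09 and 0.34 for R1 to R4 over 9890 genes. Those of differently numbered libraries ran from -0.40 (KO R4 with WT R3) to 0.39 (KO R2 with WT R3). The numbers were therefore not read as pairs. The replicate block gave 566 genes past the thresholds against 540 without it. Filters gave 716 genes with none and 502 with at least 10 counts, and leaving out WT R4 gave 847.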
